A study of Mus musculus with 30 samples.

Results

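The extracellular matrix genes described here are the collagens, laminins and matrix glycoproteins, taken as every gene whose name in the array files begins with a collagen chain, a laminin chain, Lox, Sparc or Fbln or is Fn1, Fbn1, Fbn2, Eln, Nid1, Nid2, Dcn, Lum, Bgn, Postn or Tnc. They comprised 71 genes of the 21689 named on the array, read by 124 probes. Names matched by accession to RefSeq for 65 of them and by symbol alone for 6. Of the 71, 37 were collagens (11 fibrillar, 11 of networks and basement membranes and 15 others), 13 laminins and nidogens, 6 elastic fibre genes, 5 adhesive and matricellular glycoproteins, 3 small leucine-rich proteoglycans and 5 Lox cross-linking enzymes. The remaining 2 matched by name only: Col4a3bp (now Cert1) encodes a ceramide transporter, and Loxhd1 is a hearing gene.

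RNA came from mouse embryonic fibroblasts (MEFs), an immortalised cell type grown from embryos, and was measured on 30 arrays with 2 colours, 2 arrays for each of 15 groups. Wild type MEFs made up 11 groups: anisomycin (25 ng/ml, 45 min), which inhibits protein synthesis, the cytokine TNFα (100 ng/ml, 45 min), NaCl (100 mM for 45 min, 2 h or 8 h), the same 5 stresses after the p38 inhibitor SB203580, and SB203580 alone. The paper's protocol gives 10 µM SB203580 for 30 min before the stress, whereas the sample titles state another dose and time. MEFs without p38α (p38α-/- MEFs, in which the gene Mapk14 is knocked out) made up 4 groups: untreated, anisomycin, TNFα, and NaCl for 2 h. RNA of each sample, in Cy5, was hybridised against Cy3-labelled RNA pooled from 2 cultures of untreated wild type MEFs, always in this dye orientation, so each value below is a log2 ratio of the sample to that pool. A bias between the dyes and a difference between the pool and the cells both enter each ratio, and they cannot be told apart in a test against the pool, but both cancel in a difference between groups. The labels name no more than 1 MEF population per genotype, so the loss of p38α and other differences between the cells cannot be told apart, and neither can a change in all cells and a change in some of them.

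Mapk14 lay between -2.24 and -0.94 on the 8 p38α-/- arrays and between 0.03 and 1.31 on the 22 wild type arrays. Of the probes other than controls, 81.1% to 96.8% per array were well above background in Cy5 and 92.6% to 98.9% in Cy3. All 10 of the fibroblast markers chosen (Vim, Pdgfra, Thy1 and others) had a probe well above background in the pool on 30 arrays, but so had every marker on the array of the epithelial, endothelial, muscle, blood, cartilage and fat lists, so that flag does not distinguish the cell type. Spots that the scanner software marked as outliers, 6.78% to 44.8% per array, were left out before fitting. This bore on the matrix genes more than on others: 29.1% of their probe values were left out, against 21.0% over all named probes, 26 of the 71 genes had a value on all 30 arrays, and Bgn had none. Because a gene's value without those spots can rest on different probes on different arrays, values of single arrays, and their ranges and overlaps, are given below with the spots kept unless stated otherwise. Differences, SEs and adjusted p are without those spots unless named as with outlier spots kept.

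The matrix that fibroblasts secrete is built in layers. Fibrillar collagens (types I, III and V) form the fibrils, type V setting their diameter, and the Lox enzymes cross-link them. Type IV collagen, the laminins and the nidogens form the basement membrane, elastin is laid on fibrillin microfibrils with the help of fibulins, and proteoglycans such as decorin and biglycan coat the fibrils.

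The first comparison asks which of these genes differ between p38α-/- and wild type MEFs. It was made over the 3 stresses given to both genotypes (anisomycin, TNFα, NaCl 2 h; 6 arrays each), where the pool cancels. A gene was called when limma's adjusted p over all genes was under 0.05. Of 38 matrix genes tested, 8 were called, 3 higher and 5 lower in p38α-/- MEFs, against 8.81% of all genes tested (3.91% higher and 4.89% lower). With the outlier spots in, 24 of 71 were called, 11 higher and 13 lower, against 12.8% of all genes (7.65% and 5.14%). The median difference was 0.11 over the matrix genes tested and 0.00 over all genes. When all 30 arrays were set side by side with those spots kept, 8 of the 71 genes had no overlap between the genotypes, 4 above and 4 below, whereas 1.12% of all genes had none (0.48% above and 0.641% below).

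**Figure D1:**
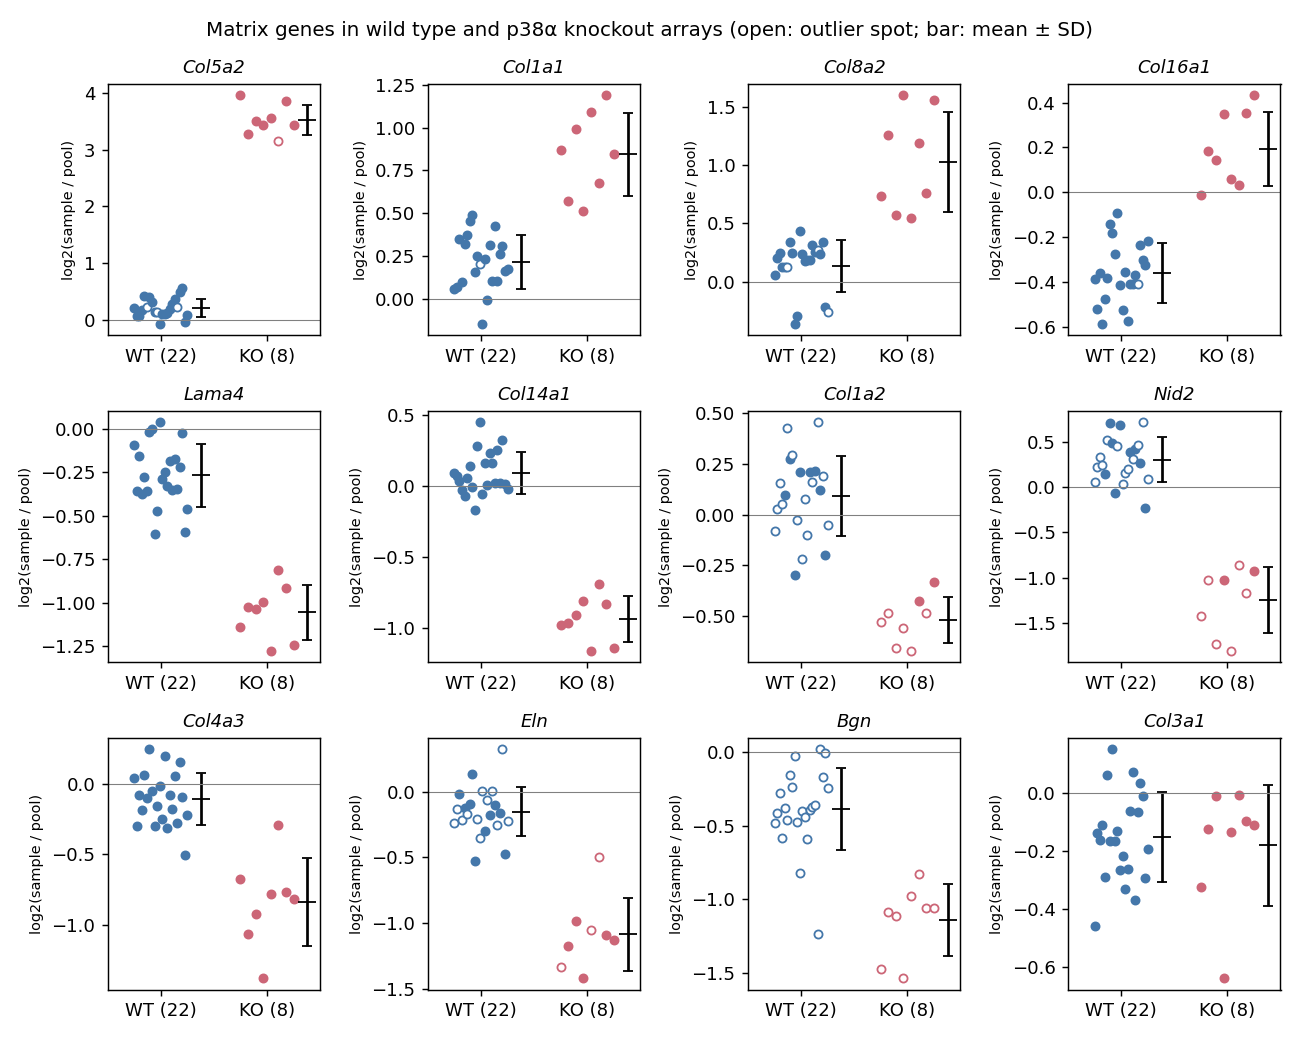
Log2 ratio to the wild type pool (vertical axis, scaled for each gene) of 12 matrix genes on the 22 wild type (blue) and 8 p38α-/- (red) arrays, with outlier spots kept. Each point is an array, open where all spots of the gene were marked as outliers, and the black bar is the mean ± SD. Col5a2 lies between 3.15 and 3.97 in p38α-/- MEFs and at most at 0.56 in wild type MEFs.

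Among the fibrillar collagens, Col5a2, the second chain of type V collagen, separated the genotypes most. It was 3.97 and 3.29 in untreated p38α-/- MEFs, 3.51 and 3.44 with anisomycin, 3.56 and 3.15 with TNFα and 3.86 and 3.44 with NaCl. On the 22 wild type arrays it lay between -0.07 and 0.56, with a median of 0.18. All 8 p38α-/- arrays were thus far above all wild type ones, with or without stress. In untreated p38α-/- MEFs it was 3.63 above the pool (SE 0.13, adjusted p = 7.31e-10). Over the 3 stresses it had no value without outlier spots because the spot of 1 TNFα array was an outlier, and with outlier spots kept the difference was 3.29 (SE 0.10, adjusted p = 2.25e-13). Col3a1, the neighbouring gene on chromosome 1 and the chain of type III collagen, lay between -0.64 and -0.01 in p38α-/- MEFs and between -0.46 and 0.15 in wild type MEFs. The groups overlapped, and its difference was 0.20 (SE 0.15, adjusted p = 0.405), with the sign turned when outlier spots were kept (-0.02, adjusted p = 0.917).

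The 2 chains of type I collagen, the main fibril protein of fibroblasts, lay on opposite sides. Col1a1 ranged from 0.52 to 1.19 on p38α-/- arrays and from -0.15 to 0.49 on wild type arrays, with no overlap. Col1a2 ranged from -0.67 to -0.33 and from -0.30 to 0.45, again with no overlap but below. With outlier spots kept, Col1a1 was higher by 0.63 (SE 0.10, adjusted p = 0.000649) and Col1a2 differed by -0.64 (SE 0.08, adjusted p = 6.95e-05). Without them Col1a1 was 0.50 (SE 0.10, adjusted p = 0.00435), but its p38α-/- arrays then rested on different probes, at 0.97 and 0.81 with NaCl and from -0.22 to 0.27 with the other stresses. With the same probes on all arrays compared it was 0.34 (adjusted p = 0.0411). Col1a2 was not tested without outlier spots, since its single probe was measured on 10 of the 30 arrays. The 3 Col1a1 probes differed in size but not in direction: their means in p38α-/- and wild type MEFs were -0.01 and -0.28, 1.45 and 0.71, and 1.09 and 0.22. Col5a1, the partner chain of Col5a2, lay between 0.06 and 0.50 in p38α-/- MEFs and between -0.44 and 0.18 in wild type MEFs. Its difference was 0.52 with outlier spots kept (SE 0.09, adjusted p = 0.00107) and 0.49 without them (SE 0.19, adjusted p = 0.111), where p38α-/- arrays reached down to -0.51 and the groups overlapped further.

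Type VIII collagen forms hexagonal networks from the chains Col8a1 and Col8a2. Col8a2 was 0.73 and 1.26 in untreated p38α-/- MEFs, 0.58 and 1.6 with anisomycin, 0.55 and 1.2 with TNFα and 0.76 and 1.56 with NaCl, all above the wild type range of -0.36 to 0.44. It was higher by 0.84 (SE 0.17, adjusted p = 0.0068). The first array of each pair was the lower one, and within the scanning batch that holds both genotypes (3 arrays each) the difference was 0.43. Col8a1 lay between 0.75 and 1.00 in p38α-/- MEFs and between -0.30 and 1.23 in wild type MEFs. The wild type NaCl 8 h arrays (1.07 and 1.23) were above all p38α-/- arrays, and the other wild type arrays were below all p38α-/- arrays. Over the 3 stresses Col8a1 was higher in p38α-/- MEFs by 0.54 (outlier spots kept, SE 0.12, adjusted p = 0.00585). Col16a1, a collagen associated with the surface of fibrils, lay between -0.01 and 0.43 against -0.59 to -0.09 with outlier spots kept, and was higher by 0.59 (SE 0.06, adjusted p = 8.64e-06). Without them it lay between -0.01 and 1.04 against -0.81 to -0.11, and was higher by 0.64 (SE 0.14, adjusted p = 0.00971). This rested mainly on 1 of its probes, at a mean of 0.96 and 0.04, while the other was at -0.57 and -0.77.

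Among the genes lower in p38α-/- MEFs, Lama4, the laminin α4 chain of mesenchymal basement membranes, was measured alike by 3 probes. It was -1.14 and -1.02 untreated, -1.04 and -0.99 with anisomycin, -1.28 and -0.81 with TNFα and -0.91 and -1.24 with NaCl, and between -0.61 and 0.04 on the wild type arrays. The difference was -0.88 (SE 0.09, adjusted p = 8.52e-06). Lama5, the α5 chain, lay between -0.45 and 0.39 against -0.10 to 0.95 and differed by -0.49 (SE 0.11, adjusted p = 0.0132). This call was lost without the first TNFα array of either genotype, at -0.43 in both cases. Nid2, a nidogen that links laminin to type IV collagen, lay between -1.81 and -0.86 on p38α-/- arrays and between -0.23 and 0.72 on wild type arrays. It differed by -1.6 (outlier spots kept, SE 0.17, adjusted p = 7.21e-06) and could not be tested without them. Nid1, the other nidogen, overlapped between the genotypes (0.04 to 1.02 and 0.23 to 1.30) and differed by -0.15 (outlier spots kept, SE 0.17, adjusted p = 0.554).

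Col4a3 and Col4a4, chains of type IV collagen that lie side by side on chromosome 1, were not alike. Col4a3 was -0.68 and -1.07 untreated, -0.93 and -1.38 with anisomycin, -0.78 and -0.29 with TNFα and -0.76 and -0.82 with NaCl. The wild type range was -0.51 to 0.25, so 1 p38α-/- array, the second of TNFα, fell within it. The difference was -0.78 (SE 0.12, adjusted p = 0.0006), and its 2 probes moved alike. Col4a4 differed by 0.21 (outlier spots kept, SE 0.08, adjusted p = 0.109). The common chains Col4a1 and Col4a2, which share a promoter region, differed by -0.32 (adjusted p = 0.00944) and -0.22 (adjusted p = 0.105) with outlier spots kept. Col14a1, a collagen that binds fibrils, lay between -1.17 and -0.69 against -0.17 to 0.45 and differed by -0.98 (SE 0.13, adjusted p = 9.16e-05). This rested on 1 probe, at a mean of -1.54 and 0.50, while the other stood at -0.34 and -0.33. With the brightest probe alone the difference was 0.061, on the other side of 0. Under normexp background correction the differences of Lama4, Col4a3 and Col14a1 were smaller, at -0.50, -0.40 and -0.54, and were still called.

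Of the elastic fibre genes, Eln, which encodes elastin, lay between -1.42 and -0.50 in p38α-/- MEFs and between -0.53 and 0.32 in wild type MEFs. It differed by -0.94 (outlier spots kept, SE 0.11, adjusted p = 3.64e-05). Fbln1, a fibulin, differed by -0.44 (SE 0.12, adjusted p = 0.022), a call lost when any of 5 of the 12 arrays was left out (-0.35 to -0.42). Those arrays were the first array of each p38α-/- stress, the first wild type NaCl array and the second wild type TNFα array. Fbn1, the fibrillin of microfibrils, lay above, at 0.10 to 0.97 against -0.49 to 0.43, and its difference was 0.41 (outlier spots kept, SE 0.17, adjusted p = 0.115). Lox, the founding lysyl oxidase, lay between -0.06 and 0.43 in p38α-/- MEFs and between 0.14 and 1.07 in wild type MEFs. It differed by -0.70 (outlier spots kept, SE 0.11, adjusted p = 0.000299). Bgn, or biglycan, differed by -0.74 (outlier spots kept, SE 0.13, adjusted p = 0.00136), although each of its spots was marked as an outlier. Its fellow proteoglycans Dcn and Lum differed by -0.13 (adjusted p = 0.641) and 0.08 (adjusted p = 0.629). The 2 Dcn probes went opposite ways, with means in p38α-/- and wild type MEFs of 0.01 and 0.71, and of -0.19 and -0.49.

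The glycoproteins Fn1, or fibronectin, Sparc, Postn and Tnc were not called. Their differences were -0.14 (SE 0.11) for Fn1 and 0.15 (SE 0.14) for Sparc with outlier spots kept, and -0.22 (SE 0.17) for Postn and 0.21 (SE 0.09) for Tnc without them. Likewise Col6a1, Fbln2, Loxl2 and Lamb1 were not called with outlier spots kept, at -0.28, 0.02, 0.21 and 0.26, nor was Lamc1 without them, at 0.06.

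**Figure D2:**
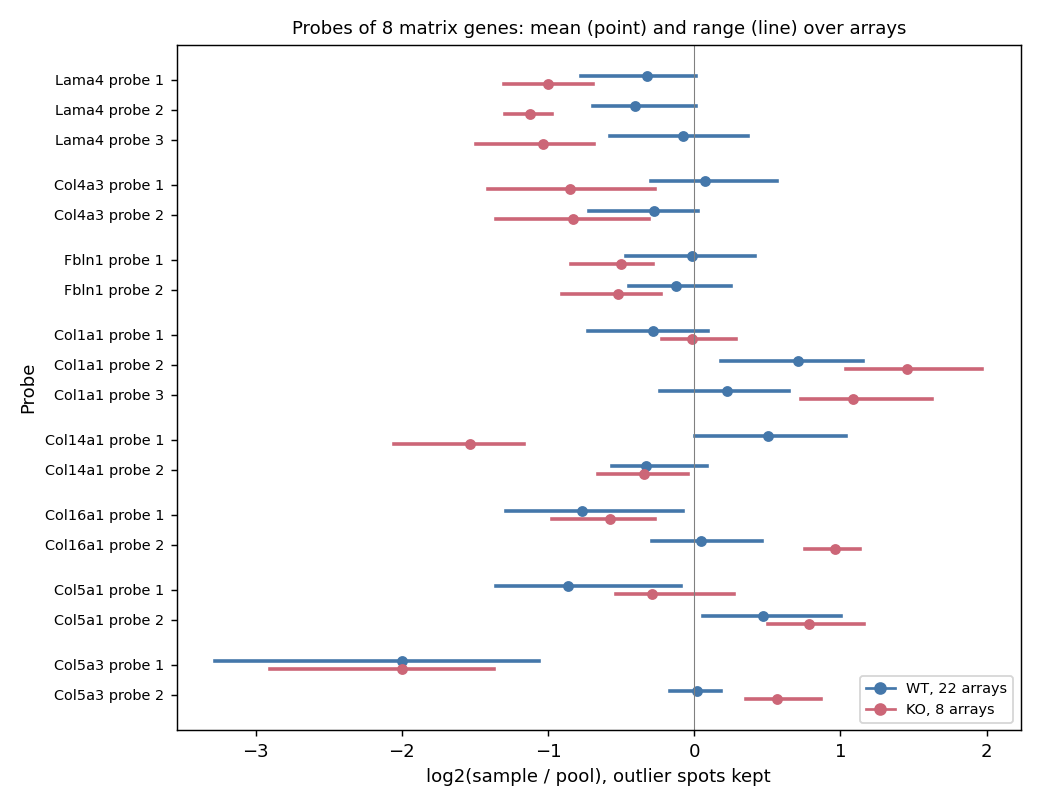
Mean (point) and range (line) of the log2 ratio to the wild type pool of each probe of 8 matrix genes over 22 wild type (blue) and 8 p38α-/- (red) arrays, outlier spots kept. The 3 Lama4 probes shift together, whereas of the Col14a1 probes 1 shifts from 0.50 to -1.54 and the other stays at -0.33 and -0.34. Of the Col5a3 probes, 1 sits at a mean of -2 in both genotypes, and the other is at 0.02 in wild type and 0.57 in p38α-/- MEFs.

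Scanning days split the arrays into 4 batches: all first wild type arrays, all second wild type arrays with all first p38α-/- arrays, and the second p38α-/- arrays in the other two. Within the batch that holds both genotypes, with outlier spots kept, Col5a2 differed by 3.46, Col1a1 by 0.87, Col16a1 by 0.62, Lama4 by -0.83, Col14a1 by -0.98, Nid2 by -1.90, Eln by -0.97, Col4a3 by -0.65 and Col1a2 by -0.73. These keep the directions given above, but not every gene did. Among the genes not called above, Nid1 (0.31), Fn1 (0.04) and Postn (0.18) lay on the other side of 0 within that batch. Fbn1 (0.86) and Col6a1 (-0.55) kept their side and differed more than over the 3 stresses.

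Untreated p38α-/- MEFs set against the pool gave 10 called genes of 43, 4 higher and 6 lower, against 15% of all genes (8.02% and 6.96%). Lower were Lama4 (-1.08), Col14a1 (-0.98), Col4a3 (-0.87), Postn (-0.64), Fbln1 (-0.46) and Tnc (-0.39), and higher were Col5a2 (3.63), Col8a2 (1.00), Lamc1 (0.56) and Fbln5 (0.53). With 2 arrays behind each value, the Postn, Fbln1 and Tnc calls ended without either array, that of Col8a2 without the second (0.73), and those of Lamc1 and Fbln5 without the first (0.33 and 0.25). Lamc1 and Fbln5 were above the pool on all 30 arrays, wild type and p38α-/- alike, so their calls are no difference between genotypes. Postn and Tnc were below the pool on 26 of the 30 arrays each, with outlier spots kept. Neither was called between genotypes over the 3 stresses, where Tnc was on the higher side in p38α-/- MEFs. Keeping the outlier spots gave 32 of 71, 9 higher and 23 lower, against 25.8% of all genes (8.56% and 17.2%).

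The second comparison asks how the matrix genes of wild type MEFs changed over time in NaCl. At 8 h, 15 of 51 genes were called against the pool, 10 higher and 5 lower, against 22.2% of all genes tested (11.0% and 11.2%). At 8 h minus 2 h, where the pool cancels, 4 of 44 were called, against 7.81% of all genes (3.34% higher and 4.47% lower), 2 in each direction, among them Col4a3bp higher and Loxl1 and Lama4 lower. The median difference between 8 h and 2 h was -0.01 over the matrix genes tested and over all genes.

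**Figure D3:**
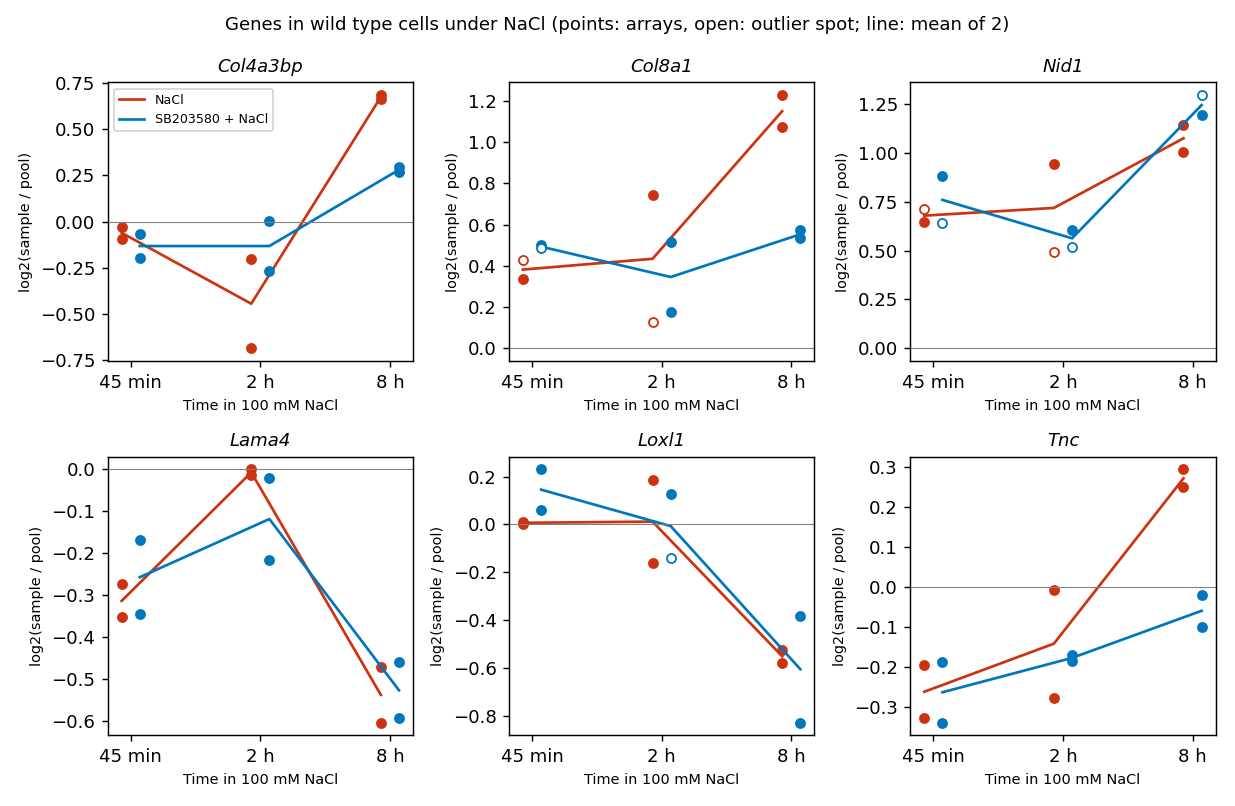
Log2 ratio to the wild type pool (vertical axis, scaled for each gene) of 5 matrix genes and Col4a3bp in wild type MEFs after 45 min, 2 h and 8 h in 100 mM NaCl, alone (red) or after SB203580 (blue). Points are arrays, open where all spots of the gene were outliers, and lines join the means of 2 arrays, with outlier spots kept. Col8a1 reaches 1.07 and 1.23 at 8 h with NaCl and 0.57 and 0.53 with SB203580. Lama4 and Loxl1 lie below the pool at 8 h in both arms. Lama4 does so at 45 min and 2 h as well, close to the pool at 2 h with NaCl alone, and on 29 of all 30 arrays.

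Lamc1, the γ1 chain found in most laminins, was 0.36 and 0.70 at 8 h and between 0.16 and 0.78 on all wild type arrays. Its call at 8 h (0.53, SE 0.13, adjusted p = 0.00669) thus repeats the level seen in every group.

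SB203580 plus NaCl for 8 h minus NaCl for 8 h called none of 45 genes (3 at an unadjusted p under 0.05), against 0.206% of all genes in limma (0.198% with outlier spots kept, also none). With the replicate number as a block, since differences between replicate numbers correlated within a genotype, 1 gene was called, against 0.583% of all genes.

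The ceramide transporter gene Col4a3bp, which is no matrix gene, was -0.03 and -0.09 at 45 min, -0.20 and -0.69 at 2 h and 0.66 and 0.68 at 8 h. It rose by 1.12 between 2 h and 8 h (SE 0.17, adjusted p = 0.00042). Loxl1, the lysyl oxidase that acts on elastin, was 0.18 and -0.16 at 2 h and -0.58 and -0.52 at 8 h, and fell by 0.56 (SE 0.17, adjusted p = 0.0455). Lama4 was -0.27 and -0.35 at 45 min, -0.01 and 0.00 at 2 h and -0.61 and -0.47 at 8 h. It fell by 0.53 between 2 h and 8 h (SE 0.16, adjusted p = 0.0467). Its 2 h values lay above those at 45 min and above its median of -0.28 on the wild type arrays. The Lama4 call was lost without any of the 4 arrays (-0.46 to -0.60) and the Loxl1 call without 3 of them, the second 2 h array being the exception (-0.39 to -0.59). With SB203580 both genes were at similar levels at 8 h, Loxl1 at -0.83 and -0.38 and Lama4 at -0.59 and -0.46. The differences between the arms were not called.

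Outlier spots included, 7 of 71 genes were called between 2 h and 8 h, against 8.35% of all genes, the further ones being Col8a1, Fbn2 and Tnc. Col8a1 was 0.34 and 0.43 at 45 min, 0.74 and 0.13 at 2 h and 1.07 and 1.23 at 8 h. With the inhibitor it was 0.57 and 0.53 at 8 h. It rose by 0.72 between 2 h and 8 h (outlier spots kept, adjusted p = 0.0332), and at 8 h it was 1.08 above the pool without those spots (SE 0.13, adjusted p = 0.000428). Tnc, or tenascin-C, was -0.28 and -0.01 at 2 h and 0.29 and 0.25 at 8 h, and rose by 0.41 (outlier spots kept, adjusted p = 0.03), with 0.34 when they were left out (adjusted p = 0.209). Col8a2, the second chain of type VIII collagen, went the other way to Col8a1. It was 0.34 and 0.24 at 2 h and -0.36 and -0.30 at 8 h, and its difference of -0.63 was not called without a block (SE 0.30, adjusted p = 0.274) but was with the replicate block, which called 11.2% of all genes there.

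Of the other genes called at 8 h against the pool, Nid1 was 1.00 and 1.14, at 1.07 (SE 0.22, adjusted p = 0.017), and between 0.23 and 1.30 on the wild type arrays as a whole. Lama5 was 0.52 and 0.89 at 8 h and already 0.94 and 0.85 at 2 h. Lox was 0.56 and 0.78 at 8 h, inside the wild type range. Fbln5 (0.61), Loxl4 (0.70) and Col4a5 (0.46) were also called higher, and Col5a3 (-0.89), Col12a1 (-0.48) and Fn1 (-0.38) lower. The Loxl4 value rested on the second array, without which it was 0.06. With outlier spots kept, neither Fn1 (-0.31, adjusted p = 0.0964) nor Loxl4 (0.30, adjusted p = 0.126) was called. Col1a1, Col1a2, Col3a1, Col4a1, Col4a2, Col6a1, Dcn, Lum and Sparc were not called at 8 h. Without the first or the second 8 h array, 7 and 6 genes were called.

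Promoter sequence of RefSeq (build GRCm38.p6) is shown for Col8a1 and Col8a2, whose chains form a single network, and for Nid1. No entry was found for Col5a2 or Lama4. Each run is the 250 bases before the transcription start, 5′ to 3′ on the gene's strand, and capitals mark matches on either strand. The motifs searched were the GC box, spelled GGGCGG, the AP-1 site, spelled TGACTCA, the TATA box, spelled TATAAA, and the CCAAT box, spelled by its name. They lie at chr16:57754738-57754987 on the minus strand, chr4:126286544-126286793 on the plus strand and chr13:13437352-13437601 on the plus strand.
Col8a1: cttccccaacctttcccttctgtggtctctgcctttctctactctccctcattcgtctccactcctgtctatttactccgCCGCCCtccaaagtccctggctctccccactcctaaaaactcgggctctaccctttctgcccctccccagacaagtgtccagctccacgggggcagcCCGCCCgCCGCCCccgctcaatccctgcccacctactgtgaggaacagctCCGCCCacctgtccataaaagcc
Col8a2: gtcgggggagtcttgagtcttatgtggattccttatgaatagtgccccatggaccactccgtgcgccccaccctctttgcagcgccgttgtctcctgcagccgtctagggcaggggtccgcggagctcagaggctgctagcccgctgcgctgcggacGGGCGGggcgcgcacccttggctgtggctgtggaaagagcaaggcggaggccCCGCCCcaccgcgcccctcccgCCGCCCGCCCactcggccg
Nid1: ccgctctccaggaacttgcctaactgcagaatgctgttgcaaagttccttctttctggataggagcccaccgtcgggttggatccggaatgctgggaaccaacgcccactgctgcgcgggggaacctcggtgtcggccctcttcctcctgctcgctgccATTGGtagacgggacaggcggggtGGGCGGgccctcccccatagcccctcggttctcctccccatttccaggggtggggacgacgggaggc
Col8a1 and Col8a2 each held 4 GC boxes, 2 of those of Col8a2 sharing bases, and Nid1 held 1 GC box and 1 CCAAT box. Of the 44 matrix genes with an entry, 26 (59.1%) held a GC box, against 32.9% of all 27025 genes in the table. A CCAAT box was found in 29.5% against 34.5%, a TATA box in 13.6% against 13% and an AP-1 site in 2.27% against 4.43%. A match says only that the letters are there.

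The third set of comparisons asks what the short stresses did to the matrix genes of wild type MEFs. Against the pool, 6 of 46 genes were called with anisomycin (12% of all genes), 5 of 44 with TNFα (11.0%), 6 of 37 with NaCl at 45 min (9.88%) and 5 of 54 with NaCl at 2 h (9.92%), where the replicate block called 11 (15.8%). The genes recurred: Col12a1 was called lower in all 3 treatments of 45 min (-0.87, -0.79 and -0.86), Col5a3 in anisomycin and TNFα (-1.11 and -1.09), and Lamc1 higher in anisomycin, TNFα and NaCl 2 h (0.46, 0.47 and 0.61). These comparisons share the pool. With SB203580 alone, 10 of 43 were called (26.6% of all genes), with Col5a3 at -1.72 and Col12a1 at -1.06. Leaving out the first SB203580 array left 1 call, and leaving out the second gave 15.

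Some genes stood on one side of the pool in every group. Of the 71 genes, 11 (15.5%) had the same sign on all 30 arrays with outlier spots kept, against 12% of all genes. Above the pool were Lamc1, Fbln5 and Nid1. Below it were Col5a3, Col7a1, Col18a1, Col9a2, Col25a1, Fbn2, Lamb2 and Lamc3. Of the 3 Col25a1 probes, 1 was below the pool on all 30 arrays and another was above it on 23. The third read 0 throughout and was not well above background in either channel. Of the Lamc3 probes, 1 was above the pool on 15 arrays and below it on 15. Within Col5a3, 1 probe lay between -3.28 and -1.06 on the wild type arrays while the other lay between -0.17 and 0.18. On the p38α-/- arrays the first lay between -2.90 and -1.37. The other lay between 0.35 and 0.87 there, above its wild type range and above the pool. Calls of these genes against the pool therefore cannot be told apart from an offset shared by all arrays. With outlier spots kept, Col12a1, Col13a1 and Col16a1 were below the pool, and Lox above it, on all 22 wild type arrays, SB203580 alone included. Their calls against the pool in wild type MEFs likewise cannot be told apart from an offset shared by those arrays.

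The other genes called at NaCl 2 h were Lama5 (0.90, SE 0.14), Lum (-0.49, SE 0.12), Fbn2 (-0.68) and Col4a3bp (-0.44). Lama5 was 0.94 and 0.85 at 2 h of NaCl and 0.42 and 0.84 at 45 min, against 0.28 and 0.32 in anisomycin and 0.41 and 0.05 in TNFα. After SB203580 it was 0.44 and 0.63 at 2 h of NaCl and 0.76 and 0.95 at 45 min. Over the 5 stresses the Lama5 difference with SB203580 was -0.06 (outlier spots kept, SE 0.09) and was not called. Lum was 0.15 and 0.05 with anisomycin and -0.36 and -0.62 with NaCl at 2 h, but also -0.40 and -0.22 with TNFα. The other genes called with anisomycin were Col3a1 (-0.64), Col1a1 (-0.40) and Tnc (-0.35), none of which was called with outlier spots kept (-0.30, 0.065 and -0.14). With TNFα they were Col13a1 (-0.71, or -0.57 with outlier spots kept) and Col23a1 (0.39), the latter not called with those spots kept (0.15). With NaCl at 45 min Lox (0.71), Fbln5 (0.74) and Col16a1 (-0.64, or -0.43 with outlier spots kept) were called either way. There Sparc (0.56) and Col5a1 (-0.81) were not called with those spots kept, at 0.44 (adjusted p = 0.0783) and -0.17 (adjusted p = 0.299). The Col5a1 value without them rested on 1 of its 2 probes, the one lower against the pool. Lox and Col13a1 could not be tested in every short stress without outlier spots, and with those spots kept both were called in all 4, Lox at 0.67, 0.71, 0.71 and 0.97 and Col13a1 at -0.57, -0.57, -0.45 and -0.49 with anisomycin, TNFα and NaCl at 45 min and 2 h. Whether genes differ between the stresses was not tested. When 1 of the 2 arrays was left out, at most 1 gene was called for anisomycin, 1 for TNFα, 2 for NaCl at 45 min and 5 at 2 h.

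**Figure D4:**
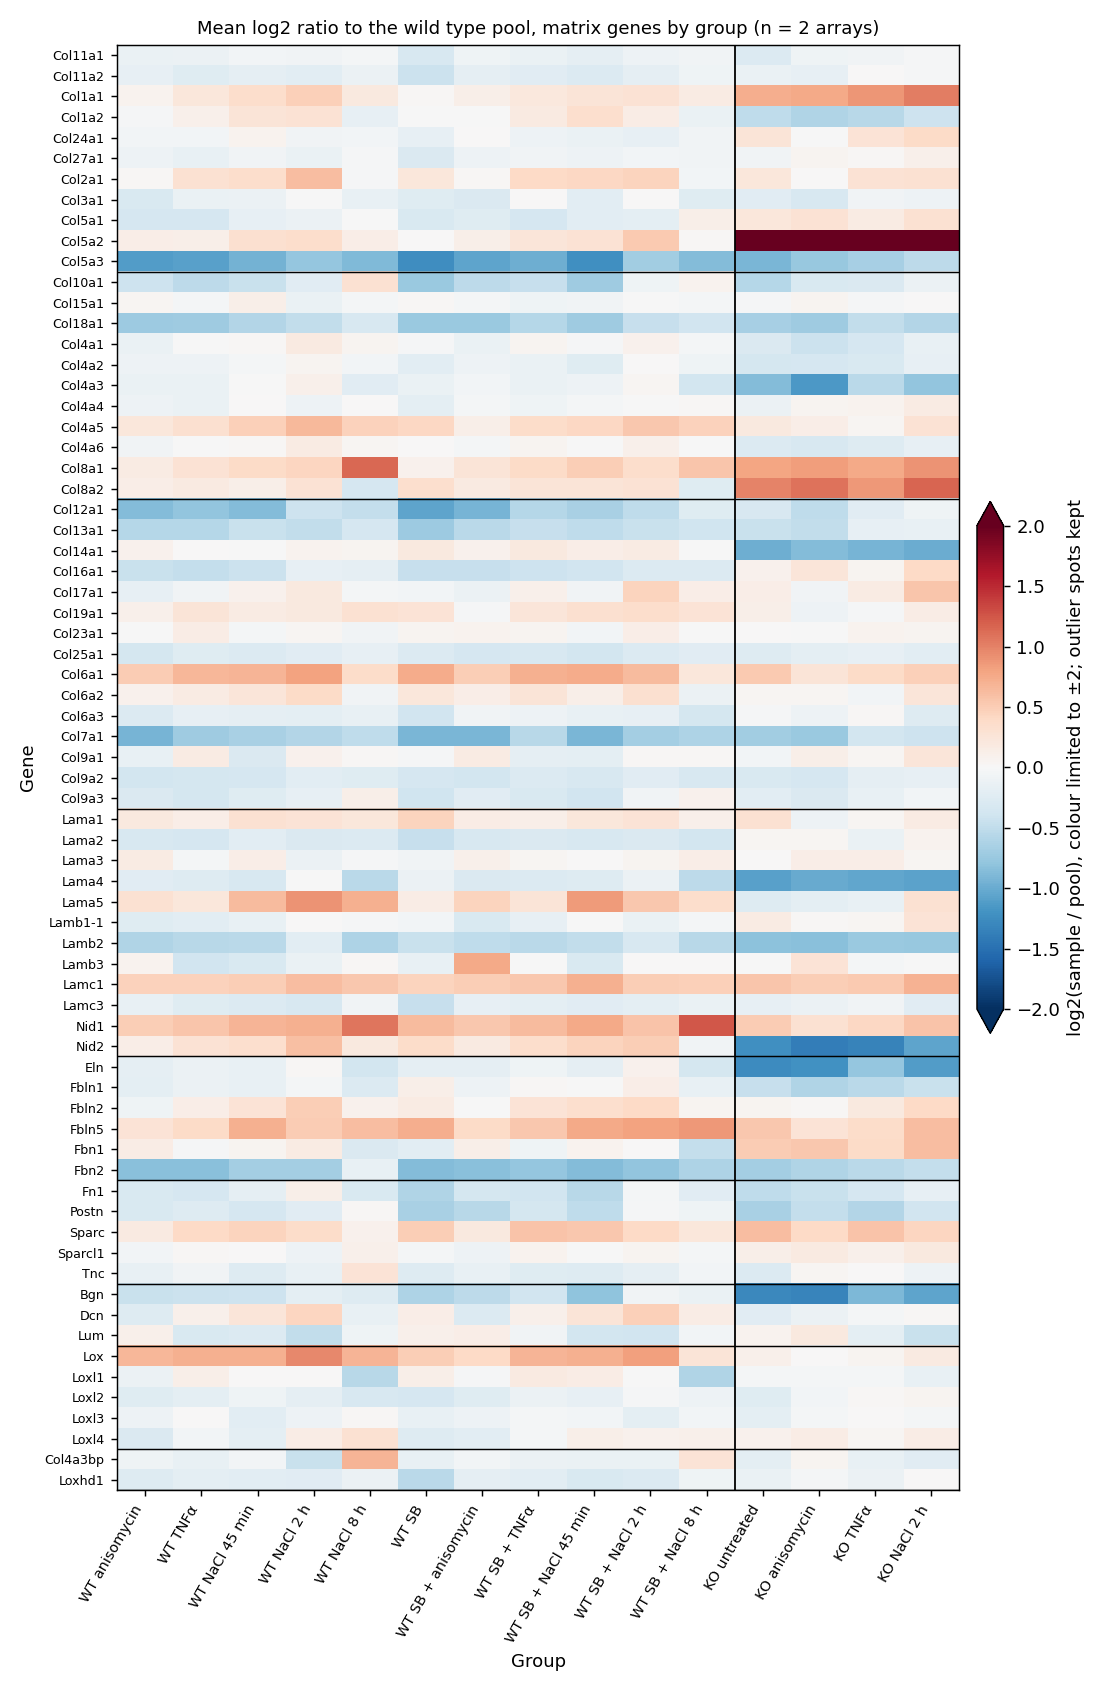
Mean log2 ratio to the wild type pool of 70 of the 71 genes (rows, by class, separated by lines) in the 15 groups (columns, wild type left and p38α-/- right of the vertical line), 2 arrays each, outlier spots kept, colour limited to 2 in either direction. Bands across all columns, such as Col5a3 and Lamc1, are genes on one side of the pool in all groups, and Col5a2 is the darkest red of the 4 p38α-/- columns.

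The fourth set asks whether the inhibitor or the knockout changed the responses. SB203580 plus stress minus stress over the 5 stresses called none of 28 genes in limma, nor any at an unadjusted p under 0.05, against 0.0742% of all genes (0.12% with outlier spots kept, again without a matrix gene). In p38α-/- MEFs, stress minus no treatment called none of 42 genes with anisomycin (0.0847% of all genes) and none of 41 with TNFα (0.078%), with 1 each at an unadjusted p under 0.05, and none with outlier spots kept (0.0784% and 0.111%). With NaCl at 2 h it called 1 of 43 (1.08%), Col1a1 at 1.03. That value arose because the spots of a probe with a higher ratio passed the outlier filter on the NaCl arrays and not on the untreated ones. With the same probes on all arrays compared, Col1a1 was not called, nor was any matrix gene with outlier spots kept (1.24%) or in the series matrix (1.72%). All spots considered, it was 0.87 and 0.57 untreated and 1.19 and 0.84 with NaCl.

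The difference of the response between genotypes was not called for any gene of 39 with anisomycin (0.542% of all genes), 38 with TNFα (0.45%) or 40 with NaCl (0.0%), with 5, 7 and 4 at an unadjusted p under 0.05. When outlier spots were retained, 7, 8 and 6 of 71 were called, against 7.2%, 8.13% and 3.54% of all genes. Col5a3 (1.27, 1.35 and 1.17), Col7a1, Col18a1 and Fbn2 were among them each time, as was Lox (-0.76, -0.77 and -0.89). All but Lox are genes that were below the pool on all 30 arrays, and the pool enters only the wild type side of this difference. Lox was above the pool on all 22 wild type arrays (0.14 to 1.07), SB203580 alone included, so the same limit holds for it.

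Of the genes that process collagen, 24 of the 26 listed were on the array. In p38α-/- minus wild type MEFs 10 were tested and 1 called, against 8.81% of all genes. This was Bmp1, the proteinase that trims procollagen, at -0.28. At NaCl 8 h, 18 were tested and 4 called, all lower, against 22.2% of all genes (11.2% lower). They were the transglutaminase Tgm2 (-1.21), the prolyl isomerases Ppib (-0.41) and Fkbp10 (-0.32), and the lysyl hydroxylase Plod1 (-0.35). None of the 15 tested was called between 2 h and 8 h (7.81% of all genes), where Tgm2 was at -0.68 (SE 0.35). Of the 26 matrix receptors, 14 were tested between genotypes and 2 called (8.81% of all genes), with Sdc2, a syndecan, lower (-0.81, SE 0.14) and Itga11, a collagen-binding integrin chain, higher (0.45, SE 0.12). At 8 h, 3 of 21 were called, against 22.2% of all genes. There Itga5, the fibronectin receptor chain, was higher (0.93, SE 0.13), as was Cd44, the hyaluronan receptor (0.91, SE 0.19), and Itga6, a laminin receptor chain, was lower (-0.68, SE 0.08). Itga6 also fell by 0.49 between 2 h and 8 h (SE 0.12, adjusted p = 0.0171). Of the cell type markers, the genotypes differed in Kdr of the 4 endothelial markers tested (-1.59), Thy1 of 6 fibroblast markers (0.58) and Myog of 2 muscle markers (0.76), and in none of the epithelial, blood, cartilage and bone or fat markers tested. At 8 h, where 22.2% of all genes were called, the markers called were Twist1 (1.20) and Twist2 (1.44) of 8 fibroblast markers tested, Cdh1 (0.31), the 1 epithelial marker tested, Itgam (0.41) of 4 blood markers and Runx2 (1.01, or 0.67 with outlier spots kept) of 4 cartilage and bone markers, all higher. None was called of the 5 endothelial, 2 muscle and 1 fat markers tested at 8 h. Twist1 (1.66), Runx2 (1.08) and Cdh1 (0.35) were also called at NaCl 2 h. Twist1 and Runx2 were above the pool on all 30 arrays, wild type and p38α-/- alike. The part of the cell type markers in the values of the matrix genes was not tested.

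The number of calls varied with the spots used. With outlier spots kept, 17 of 71 matrix genes were called for anisomycin (24.9% of all genes), 17 for TNFα (22.4%), 19 for NaCl at 45 min (19.0%), 22 at 2 h (19.7%), 19 at 8 h (26.0%) and 31 for SB203580 alone (41.4%). In the deposited series matrix 30 were called for untreated p38α-/- MEFs (27.3%), 25 between genotypes (16.0%), 18 for anisomycin (25.7%), 23 for TNFα (23.7%), 22 and 23 for NaCl at 45 min and 2 h (19.9% and 22.5%), 9 between 2 h and 8 h (10.6%) and 31 for SB203580 alone (41.6%). For the differences of a response between genotypes it called 6, 9 and 5 (6.67%, 7.74% and 4.14%), and the replicate block called 1 for anisomycin (3.15%) and 1 for NaCl (0.86%).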

How the data were processed

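The authors extracted the 2-colour Agilent 44K arrays with Agilent Feature Extraction (version 9.1 per the labels, 8.1.1.1 per the file headers), with dye normalization and a surrogate for dim signals. They deposited intensities in both channels, log10 ratios of Cy5 to Cy3, and a series matrix of log2 values centred near 0. The log10 ratios were converted to log2, spots of control probes and outlier spots were left out, and spots, then probes, were averaged per gene name. With limma 3.58.1 (R 4.3.3), 15 group means were fitted to 30 arrays, with Benjamini-Hochberg adjusted p over all genes that had a value on every array compared. The fit was tested on simulated data. Tests against the pool leave out the pool's own spread. Tables and plots were made in Python 3.11.15.

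A lower bound of a fold change was computed where a channel was not well above background, from loess and Aquantile normalized channels. Genes, lists and the rule for naming were chosen with earlier results of these data known. Named genes were the called ones, up to 15 in each direction, and 24 genes always considered. A gene of the set is not reported here, although the counts include it.

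The methods describe 2 independent experiments. Differences between replicate numbers correlated between groups of a genotype in 55 of 55 wild type pairs (r 0.22 to 0.66) and 6 of 6 p38α-/- pairs (0.16 to 0.39). The replicate numbers also track the batches of scanning, so a pairing of the samples and an effect of scanning cannot be told apart. Alternatives tried were the series matrix, normexp followed by loess, the brightest probe, probes well above background, outlier spots kept, a replicate block, the scanning batch as a random block, fewer arrays, and each array left out. Added after the data were seen were probes measured on all arrays compared and the scanning batch as a fixed term or within a batch. Protein sequences were not used here, and of the genome only the promoter sequences described above were used.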

Additional observations from a re-analysis of the deposited data

How the results depend on the processing

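Keeping outlier spots raised the number of genes called to 32 for untreated p38α-/- MEFs, 24 for p38α-/- minus wild type, 17 for anisomycin, 17 for TNFα, 19, 22 and (within 1.5 times) 19 for NaCl at 45 min, 2 h and 8 h, 7 for 8 h minus 2 h, 31 for SB203580 alone and 7, 8 and 6 for the differences of the response to anisomycin, TNFα and NaCl. More genes were tested there (71). The series matrix gave 30, 25, 18, 23, 22, 23, 9, 31, 6, 9 and 5 in the same order without 8 h. With normexp the count was 3 at NaCl 45 min, 8 at 2 h and 1 for the NaCl difference, and with the brightest probe 11 at NaCl 2 h and 1 for the anisomycin difference. With p38α-/- arrays alone, 4 genes were called for untreated p38α-/- MEFs. The replicate block, which pairs the arrays, gave 11 at NaCl 2 h, 1 for SB203580 at NaCl 8 h (also 1 with the scanning batch as a fixed term) and 1 each for the anisomycin (Tnc) and NaCl (Col1a1) differences, and changed no other count by over 1.5 times. The random batch block gave 1 for the anisomycin difference. The single call in p38α-/- MEFs with NaCl, Col1a1, became 0 with the series matrix, the brightest probe, outlier spots kept, p38α-/- arrays alone and the same probes on all arrays. The causes were not tested beyond this.

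Without 1 array at a time, counts lay between 6 and 8 for untreated p38α-/- MEFs, 6 and 9 for p38α-/- minus wild type, 0 and 1 for anisomycin and for TNFα, 0 and 2 for NaCl at 45 min, 1 and 5 at 2 h, 6 and 7 at 8 h, 1 and 3 for 8 h minus 2 h, 1 and 15 for SB203580 alone, and 0 and 2 for NaCl in p38α-/- MEFs. Signs turned for Col14a1 between genotypes (0.061 with its brightest probe and with probes well above background), Col1a1 with anisomycin (0.21 in the series matrix, 0.065 with outlier spots kept) and Tnc with SB203580 alone (0.022 with probes well above background).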
